A study of Mus musculus with 8 samples.

Results

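The 4 testis libraries labelled postnatal day 18 (P18) were regrouped by their Alkbh5 transcript, whatever genotype the label gave. They are 4 of the 8 RNA-seq libraries of the study. The libraries labelled wild-type (WT) P18 replicate 1 and Alkbh5-null (KO) P18 replicate 2 had less than 1 FPKM of Alkbh5 (fragments scaled by transcript length and library depth) and form the low pair. Those labelled WT P18 replicate 2 and KO P18 replicate 1 had more than 1 FPKM and form the high pair. This grouping goes against 2 labels: a library labelled WT is in the low pair, and a library labelled KO is in the high pair. Both libraries labelled KO P18 also carry liver transcripts, and 1 of them is now in each pair. The other 4 libraries came from testes labelled postnatal day 12 (P12), 2 WT and 2 KO, and were grouped by their labels. The samples are whole testes of male mice. The labels do not state the strain, which part of the Alkbh5 gene is deleted, whether animals were pooled, or whether the libraries of a group came from separate animals.

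ALKBH5 is a demethylase that removes N6-methyladenosine (m6A) from RNA in the nucleus, and male mice without it are known to be infertile. In the young mouse testis the first wave of spermatogenesis moves through the stages together, so a later age adds later germ cell types. P12 testes are rich in leptotene and zygotene spermatocytes, in which chromosomes begin to pair and recombine. By P18 pachytene and diplotene spermatocytes, which have begun to transcribe genes for the future sperm, make up a large share of the germ cells.

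The Alkbh5 values that made the pairs are a description and carry no test. The low pair had 0.00985 FPKM from 4 counts (labelled WT replicate 1) and 0.155 FPKM from 73 counts (labelled KO replicate 2). The high pair had 9.07 FPKM from 3489 counts (labelled WT replicate 2) and 17.9 FPKM from 7800 counts (labelled KO replicate 1). Pairs of values are given in this order of libraries from here on. The values nearest to the threshold of 1 FPKM were thus 0.155 below it and 9.07 above it. Total counts were 62634844 and 71537841 in the low pair and 59151494 and 66080256 in the high pair, within the range of 58417668 to 71537841 over the 8 libraries, so depth does not order the pairs.

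**Figure D1:**
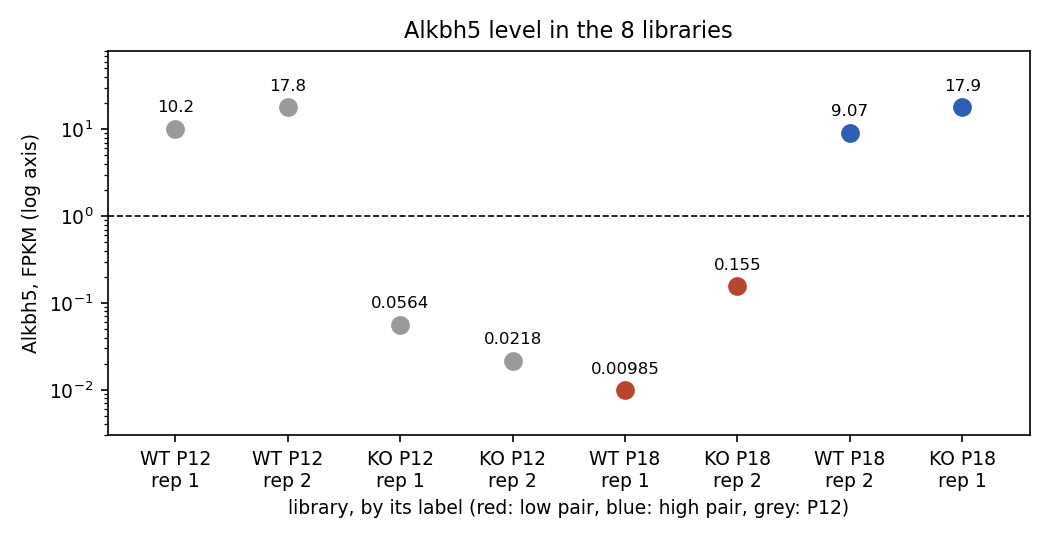
Alkbh5 in FPKM (log axis) in each of the 8 libraries, named by label; the dashed line is the threshold of 1 FPKM. At P18 the low pair (red) is at 0.00985 and 0.155 FPKM and the high pair (blue) at 9.07 and 17.9 FPKM, with 1 library of each label in each pair.

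Over the genes fitted, the libraries followed the pairs and not the labels. The Pearson correlation of log2 CPM (counts scaled to library size) across genes was 0.9685 within the low pair and 0.957 within the high pair. Between a low and a high library it was 0.7935 to 0.8624. The low pair was also close to the younger testes: the library labelled WT P18 replicate 1 correlated at 0.9573 to 0.97 with the 4 P12 libraries, and that labelled KO P18 replicate 2 at 0.944 to 0.9571. The high pair correlated at 0.702 to 0.8476 with the same P12 libraries. These correlations are across genes of whole-testis libraries and are given as a description. The Alkbh5 level and the levels of transcripts of later germ cell stages, described below, move together in these 4 libraries. The labels give no stage of the testes beyond their age. The parts of Alkbh5 and of stage in any difference between the pairs cannot be told apart.

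Because the pairs were formed from the measured values, differences between them are described without a test. A gene was counted as apart when both libraries of 1 pair exceeded both of the other with a smallest gap of at least 1 in log2 CPM. Of 16702 genes fitted, 2481 (14.9%) were apart with lower values in the low pair and 151 (0.904%) with higher values, and 14070 were neither. Without the gap, 6504 genes (38.9%) were lower with no overlap and 6808 (40.8%) were higher. Of those with a gap under 1 log2 unit, 4023 were lower and 6657 higher, so the small differences were more often higher and the large ones mostly lower. The filter let a gene in through 1 pair: 1077 genes reached 1 FPKM in the 2 high libraries and in no other library, and 1033 of these are among the lower genes. The lower genes had a median log2 difference (low pair minus high pair) of -2.96, with 10th and 90th percentiles of -6.27 and -1.47, and the higher genes a median of 1.51. The smallest gap was at least 2 log2 units for 1478 of the lower genes and for 6 of the higher ones.

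**Figure D2:**
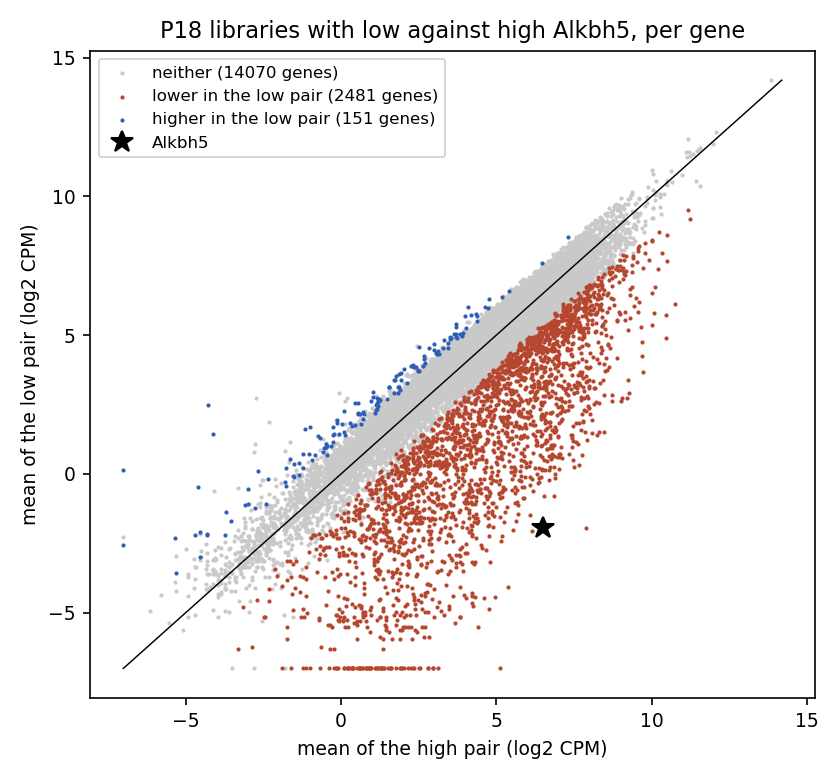
Mean log2 CPM of each fitted gene in the high pair (horizontal) and the low pair (vertical), with the line of equality; red genes are apart and lower in the low pair (2481), blue genes apart and higher (151), and grey genes neither (14070). The red genes reach far below the line, while most blue genes lie close above it; the star is Alkbh5.

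The lower genes were mostly genes that the high pair had above the younger testis. Of the 2481, 2456 were higher in both high libraries than in both libraries labelled WT P12. The 1033 that passed the filter through the high pair alone had to be. Of the 14070 genes that were neither, 2610 were higher in this way. In the low pair, 628 of the 2481 were above both libraries labelled WT P12 and 560 were below both, and 69 had no count in either low library. Of the 151 higher genes, 136 were lower in both high libraries than in both WT P12 libraries. The same held for 8731 of the 14070 genes that were neither, so it was common outside the higher genes too. The high pair was not uniform either. Within it, 2319 of the 2481 lower genes (93.47%) had more transcript in the library labelled KO replicate 1, which also had the higher Alkbh5 level, than in that labelled WT replicate 2, against 52.28% of all genes fitted.

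The 10 lower genes with the largest differences among those named by rule were nearly absent from the low pair. All 10 were under 1 FPKM in every library outside the high pair. The filter let them in through that pair alone, so they had to be lower in the low pair. Speer1, a member of a testis-specific glutamate-rich protein family, had no count in either low library and 15.9 and 42.1 FPKM in the high pair. With the low pair set to 3 counts over both libraries, this is at least 1637-fold lower. Speer1 belongs to a multigene family with similar copies, so its counts are uncertain. Ms4a19 had no count in the low pair and 5.13 and 16.3 FPKM in the high pair (at least 436.8-fold lower), and Glipr1l1, a sperm-associated protein in mouse, had none against 4.97 and 8.61 FPKM (at least 302.5-fold lower). For each of these 3 genes the high library labelled KO had the higher level.

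Other leading genes kept a trace of transcript in a low library. Nme8, a thioredoxin-domain protein of cilia and the sperm tail, had 0 and 0.0525 FPKM in the low pair and 4.51 and 17.2 FPKM in the high pair. Prss39, a testis serine protease, had 0 and 0.180 FPKM against 7.92 and 30.1 FPKM. Abca14, a transporter-family gene, had 0.0253 and 0.0519 FPKM against 6.83 and 14.9 FPKM. Gtsf2, of a family of small zinc-finger proteins that act with PIWI proteins, had 2 counts over the low pair and 540 over the high pair. Its ratio of high to low counts, scaled by library size, was 289 with an exact 95% interval of 79.7 to 2390, which covers counting error only. Ifitm7 (log2 difference -8.30) and Ccdc178 (-7.88) were also among the 10 lower genes with the largest differences, as was Mir327. The last is a miRNA locus with 71 counts in all, measured here in poly(A) RNA, so its counts are not the mature miRNA.

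The germ cell genes are described by stage, from stem cells to spermatids. For the list counts that follow, 14.9% of all genes fitted were apart and lower and 0.904% apart and higher. Without overlap, 38.9% were lower and 40.8% higher. In whole testis, fewer cells of a type and less RNA per cell cannot be told apart. Undifferentiated spermatogonia, the stem and progenitor cells of the lineage, were represented by 14 fitted genes with a median log2 difference of 0.74, against 0.04 over all genes fitted, and 10 of the 14 were higher in the low pair without overlap, against 40.8% of all genes fitted. Zbtb16, a transcription factor that maintains these cells, had 8.87 and 8.61 FPKM in the low pair and 4.06 and 3.51 FPKM in the high pair. Sohlh1, which drives their differentiation, had 17.6 and 16.5 against 11.4 and 5.34 FPKM, and Ret, a receptor subunit for GDNF, had 2.88 and 2.54 against 1.19 and 1.003 FPKM. All 3 were higher in both low libraries. Id4, a transcriptional inhibitor known from spermatogonial stem cells, went the other way, with 3.28 and 3.34 FPKM in the low pair and 9.49 and 9.68 FPKM in the high pair, and was the 1 gene of the list that was apart and lower.

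Genes of differentiating spermatogonia and meiotic entry (17 fitted) had a median of 0.33. Of these, 11 were higher in the low pair without overlap, 3 were lower without overlap, and 2 of the 3 were apart. Over all genes fitted, 40.8% were higher and 38.9% lower without overlap. The 2 genes apart are 11.76% of the list, beside 14.9% of all genes fitted. Stra8, the retinoic acid target needed to start meiosis, had 47.9 and 55.6 FPKM in the low pair and 39.8 and 28.0 FPKM in the high pair. Dmrtb1, a transcription factor at the change from mitosis to meiosis, was lower in the low pair (13.4 and 15.7 against 64.6 and 129 FPKM), as was Ddx4, the germ cell RNA helicase (69.0 and 81.8 against 182 and 199 FPKM). Tex101, a germ cell surface protein, had 195 and 191 against 363 and 296 FPKM and was just short of the gap. Dmrtb1, Ddx4 and Tex101 are the 3 lower genes, so most members of the list were on the side of Stra8.

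Genes of chromosome pairing differed less than those of later stages. Of 21 synaptonemal complex and meiotic cohesin genes, 16 were lower in the low pair without overlap and 7 were apart, with a median of -0.82. Over all genes fitted, 38.9% were lower without overlap and 14.9% were apart and lower. Sycp3, a lateral element protein of the complex, had 143 and 158 FPKM in the low pair and 210 and 233 FPKM in the high pair. Syce1, a central element protein, had 34.9 and 41.3 against 124 and 163 FPKM. Meikin, which sets kinetochore function in the first meiotic division, had 2.46 and 2.26 against 11.8 and 14.7 FPKM. Each of these 3 genes separated the pairs, and the gap of Sycp3 was under 1 log2 unit.

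Of 33 recombination genes, 10 (30.3%) were apart and lower, beside 14.9% of all genes fitted, with a list median of -0.60. Those apart included Spo11, which makes the DNA breaks that start recombination, Psmc3ip, a partner of the strand exchange enzyme Dmc1, and Cntd1, a cyclin-like protein of crossover designation. Psmc3ip had 11.1 and 13.1 FPKM in the low pair and 53.7 and 56.1 FPKM in the high pair. Cntd1 had 7.96 and 7.65 against 37.1 and 43.3 FPKM. Prdm9, which places the breaks (log2 difference 0.09), and Dmc1 (0.17) did not separate by the gap: Dmc1 had 30.1 and 32.8 FPKM in the low pair and 25.5 and 21.9 FPKM in the high pair.

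The pachytene and diplotene genes differed widely between the pairs. Of 33 genes 31 were fitted, 2 of them through the high pair alone. Of the 31, 29 were apart and lower, Cdc25c and Hspa1l were not, and the list median was -4.63. Their summed level was 353 and 402 FPKM in the low pair and 3428 and 4878 FPKM in the high pair. Ldhc, the lactate dehydrogenase of germ cells, had 16.5 and 21.2 against 672 and 841 FPKM. Adam3, a sperm surface protein needed for migration into the oviduct, had 1.18 and 0.768 against 70.7 and 146 FPKM. Ccna1, the germ cell cyclin A needed to leave meiotic prophase, had 0.262 and 0.311 against 14.7 and 47.1 FPKM. Hspa2, the meiotic HSP70 chaperone, had 59.5 and 65.0 against 323 and 444 FPKM. Against the 2 libraries labelled WT P12, both low libraries were above in 10 of the 31 genes, below in 8 and neither in 13. Hspa2 (36.4 and 48.0 FPKM in WT P12) and Ldhc (6.55 and 15.2 FPKM) are among those above, and Ccna1 (0.354 and 0.717 FPKM) among those below.

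**Figure D3:**
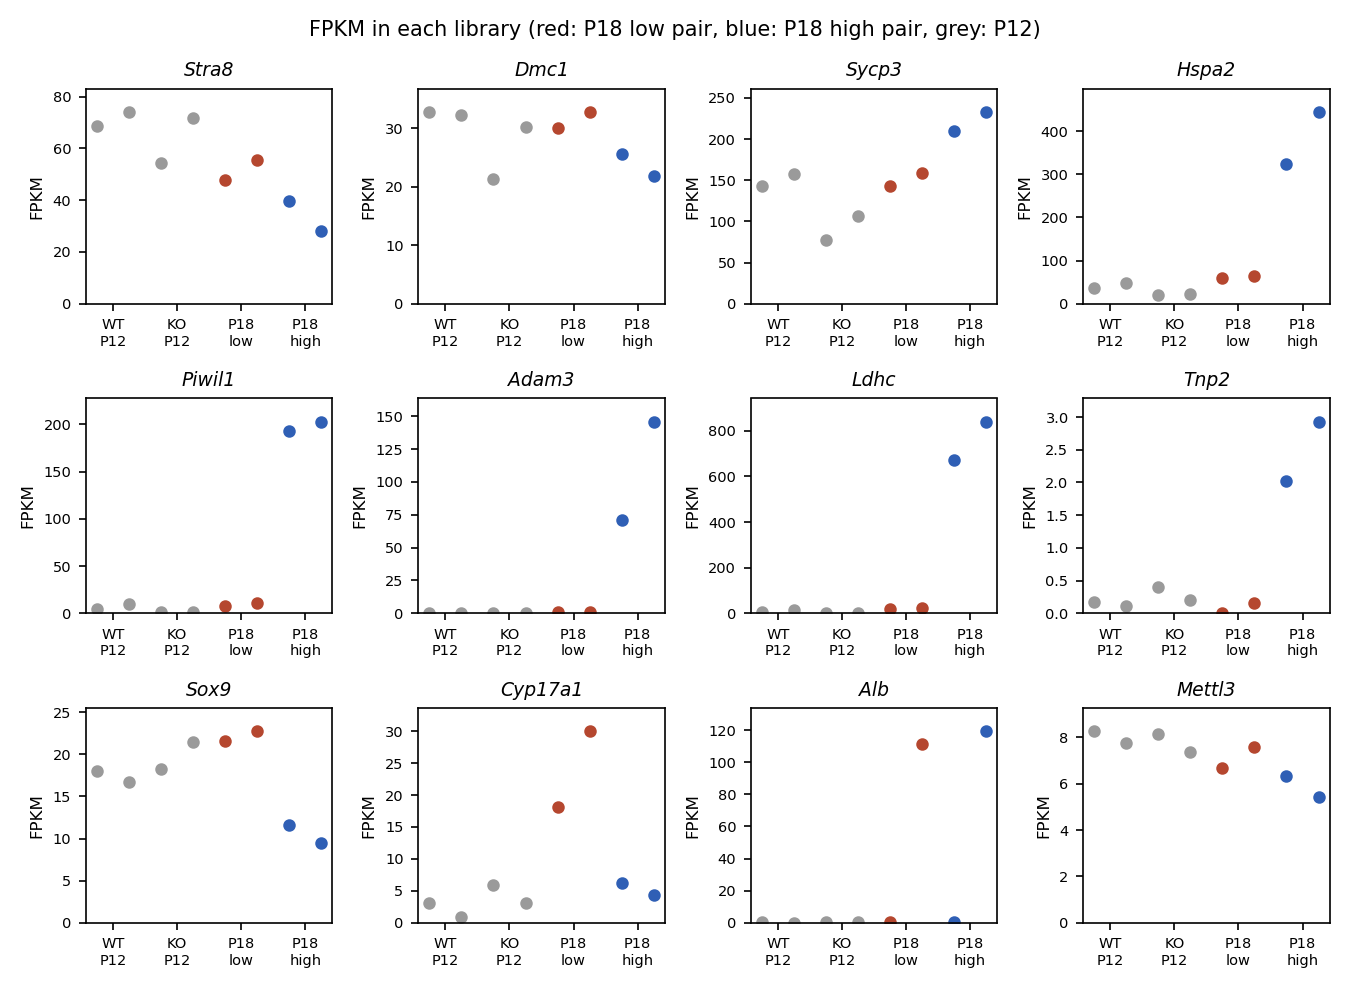
FPKM of 12 genes in each library, on axes that start at 0; each point is 1 library, grey for P12 by label, red for the P18 low pair and blue for the P18 high pair. Hspa2, Piwil1, Adam3, Ldhc and Tnp2 are higher in the blue points, Stra8, Sox9 and Cyp17a1 are higher in the red ones, and Alb is high in 1 library of each pair.

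Genes of sperm structures that are switched on in late spermatocytes and spermatids were also lower in the low pair. Of 61 genes of the axoneme and sperm tail 52 were fitted, 24 of them through the high pair alone, which had to be lower in the low pair. Of the 52, 49 were apart and lower, 52 were lower without overlap, and the median was -4.42. Rsph1, a radial spoke protein, had 76.9 and 76.1 FPKM in the low pair and 580 and 798 FPKM in the high pair, and Rsph6a, another radial spoke protein, had 0.413 and 0.273 against 22.4 and 55.5 FPKM. Catsperg1, a subunit of the CatSper calcium channel of the sperm tail, had 6.71 and 6.48 against 54.5 and 58.2 FPKM. The 52 fitted genes also had more transcript in the high library labelled KO than in that labelled WT.

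Of 28 acrosome genes 15 were not fitted, and 4 of the 13 fitted passed through the high pair alone. Of the 13, 12 were apart and lower (median -5.06), the exception being Spaca1. Crisp2, an acrosome and tail protein, had 2.09 and 2.58 FPKM in the low pair and 125 and 199 FPKM in the high pair, and Spata16, a Golgi protein of acrosome formation, had 0.818 and 1.30 against 55.3 and 104 FPKM. Of 26 genes of sperm ADAM proteins and the sperm surface 12 were not fitted, and 3 of the 14 fitted passed through the high pair alone. Of the 14, 10 were apart and lower (median -4.17). Adam18, 1 of these 3, had 0.166 and 0.123 against 16.7 and 34.4 FPKM. Crisp2, Spata16 and Adam18 were each more than 10 FPKM in both high libraries and under 3 FPKM in both low ones.

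Prm1 and Tnp1, the defining markers of haploid cells, were under 0.5 FPKM in both pairs. Of 35 genes of spermatids, protamines and transition proteins, 26 were not fitted and 9 were, 4 of them through the high pair alone, and 5 of the 9 were apart and lower. Prm1, which packs sperm DNA, had 0 and 0.0831 FPKM in the low pair and 0 and 0.419 FPKM in the high pair, and Tnp1, a transition protein, had 0.122 and 0.0740 against 0.122 and 0.130 FPKM. Tnp2, another transition protein, had 0 and 0.150 against 2.03 and 2.93 FPKM. Actl7b, an actin-like protein of spermatids, had 0.535 and 0.193 against 19.14 and 42.4 FPKM. The high pair therefore held Actl7b transcript with hardly any Prm1 or Tnp1.

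**Figure D4:**
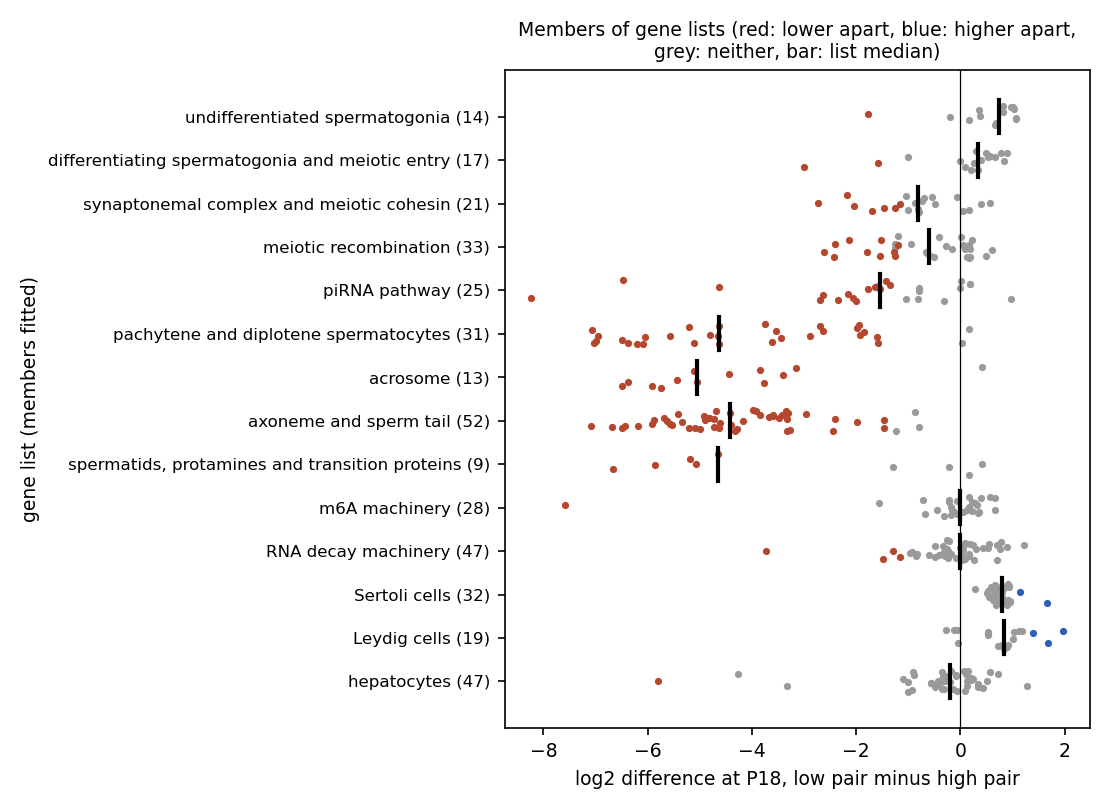
Log2 difference at P18 (low pair minus high pair) of the fitted members of 14 gene lists, with 1 point for each gene and a black bar at the list median; the number after each list name is its fitted members. The medians go from 0.74 for undifferentiated spermatogonia to -5.06 for acrosome genes, while the m6A and RNA decay lists centre near 0 and the Sertoli and Leydig lists lie above it.

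Regulators of this transcription programme, enzymes of small RNA silencing and proteins that store mRNA also separated the pairs in part. Of 31 regulators 10 were apart and lower (32.26%, beside 14.9% of all genes fitted, median -0.44). They include Rfx2, a factor that switches on cilium genes in spermatids (3.29 and 3.49 against 23.5 and 34.4 FPKM), its relative Rfx4 (0.533 and 0.579 against 8.87 and 12.3 FPKM), and Brdt, a bromodomain reader of acetylated histones in spermatocytes (11.7 and 11.95 against 32.4 and 47.7 FPKM). Rfx4 passed the filter through the high pair alone, so it had to be lower. Tcfl5, a pachytene transcription factor, had 11.3 and 12.3 against 49.9 and 69.0 FPKM. Mybl1, the A-MYB factor that activates pachytene genes and piRNA clusters, was lower in both low libraries but short of the gap (10.4 and 11.4 against 16.9 and 22.8 FPKM).

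Of 25 piRNA pathway genes 15 were apart and lower (median -1.54). Of the 25, 2 passed the filter through the high pair alone, Gtsf2 and Tdrd6, and had to be lower in the low pair. Piwil1, the pachytene PIWI protein, had 7.75 and 11.1 FPKM in the low pair and 193 and 203 FPKM in the high pair. Tdrd6, a tudor protein of the chromatoid body, had 0.868 and 0.878 against 46.8 and 82.7 FPKM. Mael, which silences transposons in germ cells, differed less, with 71.6 and 78.4 against 225 and 302 FPKM, and Tdrd9, a helicase that works with the fetal PIWI proteins, had 28.1 and 28.8 against 64.2 and 65.9 FPKM. Piwil2, a PIWI protein expressed from earlier stages, had 50.4 and 50.6 against 89.95 and 86.0 FPKM and was short of the gap.

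Of 32 genes of germ cell translational control 15 were apart and lower (median -1.20), among them Ybx2, which stores mRNA for later translation (47.3 and 48.4 against 408 and 520 FPKM), and Pabpc2 and Pabpc6, retrogene copies of the poly(A)-binding protein whose reads can be shared with related copies. Of 19 genes of testis glycolytic isoforms 9 were apart and lower (median -1.43). Of the 19, 2 passed the filter through the high pair alone, Pgk2 among them, and had to be lower. Pgk2, the germ cell phosphoglycerate kinase, had 0.406 and 0.377 against 24.3 and 58.7 FPKM, and Pgam2 3.90 and 3.84 against 132 and 241 FPKM. Of 39 cyclin, kinase and G2 to M phase genes 10 were apart and lower (25.64%, median -0.44), including Aurkc, a meiotic Aurora kinase (1.04 and 0.906 against 8.03 and 12.1 FPKM). Of 20 genes of the HSP70 family and its partners 6 were apart and lower (30.0%, median -0.18). Of 17 testis histone and chromatin genes 3 were apart and lower (median -0.45), a share of 17.65% near the 14.9% of all genes fitted, while the ubiquitous H3f3b had 255 and 261 against 327 and 273 FPKM. Through the high pair alone the filter passed 1 gene each of the translational control, cyclin and histone lists, Ccna1 and Hils1 among them. These genes had to be lower in the low pair.

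Transcripts of proteins that write, read and erase m6A were on both sides. Without overlap, 10 of 28 were lower and 11 higher in the low pair, near the 38.9% and 40.8% of all genes fitted. Of the 28, Alkbh5 was the 1 gene apart, and the list median was -0.01. Mettl3, the catalytic subunit of the m6A writer, had 6.69 and 7.604 FPKM in the low pair and 6.33 and 5.41 FPKM in the high pair. Fto, the other known demethylase, had 5.399 and 5.16 against 4.15 and 5.18 FPKM, and Ythdc2, a reader needed for meiosis, had 9.16 and 9.93 against 11.2 and 10.8 FPKM. Igf2bp3, a reader that stabilizes mRNA, was lower in both low libraries (1.902 and 1.46 against 3.29 and 4.96 FPKM) but short of the gap. The RNA decay machinery was like the m6A list, with 4 of 47 genes apart and lower (Dcp1b, Edc4, Upf3a and Btg4) and a median of -0.01. The 4 genes are 8.51% of the list, beside 14.9% of all genes fitted. Btg4 passed the filter through the high pair alone and had to be lower. Upf1, the central factor of nonsense-mediated decay, had 34.3 and 38.5 against 58.0 and 59.4 FPKM. On the scale of log2(FPKM + 1) the medians were 0.21 and 0.20, beside 0.21 for all genes, so both lists stayed at the centre of all genes.

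Neighbours of Alkbh5 on chromosome 11 were not lower as a block. Of 28 fitted, 6 were apart and lower: Alkbh5, Dhrs7b, Drc3, Nt5m, Fbxw10 and Trim17. Fbxw10, an F-box protein gene, had 0.229 and 0.244 against 17.6 and 35.6 FPKM, while Cops3, a subunit of the COP9 signalosome, had 30.8 and 31.0 against 44.1 and 47.2 FPKM. Without Alkbh5, which formed the pairs, 5 of 27 were apart and lower, beside 14.9% over all genes fitted. Of these 5, 2 passed the filter through the high pair alone, Fbxw10 among them, and had to be lower.

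Somatic cell genes were higher in the low pair by small factors. Of 32 Sertoli cell genes 30 were higher without overlap, against 40.8% of all genes fitted, and 2 were apart, with a median of 0.79. Sox9, a transcription factor that defines Sertoli cells, had 21.6 and 22.8 FPKM in the low pair and 11.6 and 9.47 FPKM in the high pair. Clu, a secreted chaperone and the most abundant of the list, had 1290 and 1216 against 654 and 493 FPKM. The 2 genes apart were growth factors that Sertoli cells make for spermatogonia, Gdnf (2.67 and 2.90 against 0.896 and 0.605 FPKM) and Kitl (32.4 and 32.7 against 13.8 and 11.4 FPKM). The named Sertoli genes separated the pairs without overlap.

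Of 19 Leydig cell genes 3 were apart and higher (Star, Cyp17a1 and Lhcgr), and the median was 0.83. Cyp17a1, an enzyme of androgen synthesis, had 18.1 and 30.0 FPKM in the low pair and 6.18 and 4.31 FPKM in the high pair, and Lhcgr, the luteinizing hormone receptor, had 5.36 and 5.49 against 1.56 and 1.30 FPKM. Insl3, a Leydig hormone, had 94.8 and 63.1 against 37.6 and 28.2 FPKM. Cyp17a1 and Insl3 were also above both WT P12 libraries in the low pair (3.16 and 0.887 FPKM, and 11.9 and 14.8 FPKM), so the low pair did not match P12 in these genes. Other genes that led the higher side were Tceal6 (log2 difference 1.93), Tnfrsf12a (1.74), Ildr2 (1.70), Igfbp3 (1.70), Padi2 (1.57), Tesc (1.57), Scara3 (1.53) and Pdlim4 (1.52).

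Macrophage (median 0.68), endothelial (0.67) and peritubular and stromal genes (0.41) had no member apart and were mostly higher in the low pair, with 13 of 14, 9 of 12 and 14 of 22 genes higher without overlap, against 40.8% of all genes fitted. Csf1r, a macrophage receptor, had 8.44 and 5.85 FPKM in the low pair and 4.37 and 2.83 FPKM in the high pair. Acta2, the smooth muscle actin of peritubular cells, overlapped between the pairs (209 and 216 against 191 and 122 FPKM). Sox17 was the 1 endothelial gene with a lower fitted value in the low pair (log2 difference -0.98). Junction genes of the blood-testis barrier had a median of 0.71, yet Nectin3 and Pard6a were apart and lower. Nectin3, an adhesion protein between Sertoli cells and spermatids, had 1.91 and 2.17 against 9.82 and 13.8 FPKM. Cholesterol synthesis (0.44), p53 target (0.48) and DNA methylation genes (0.51) had no member apart. Of their 25, 26 and 9 fitted genes, 6, 4 and 2 had a lower fitted value in the low pair. Among these were Fdft1 (log2 difference -1.35), Zmat3 (-1.05) and Uhrf1 (-0.76), 1 from each list. Of the immediate-early genes (0.78) Atf3 was apart, with 1.24 and 1.63 against 0.346 and 0.0822 FPKM.

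X-linked genes were shifted together. Of 673 fitted, 632 had a log2 difference above 0, and 576 were higher without overlap, against 40.8% of all genes fitted. The median was 0.65, against medians of -0.11 to 0.06 for the 19 autosomes. As background, the sex chromosomes are known to be silenced in pachytene spermatocytes. All 31 X-linked housekeeping genes were higher without overlap (median 0.67), among them Ddx3x, an RNA helicase (56.5 and 59.0 against 31.2 and 24.1 FPKM), and Rpl10 (112 and 106 against 82.0 and 48.9 FPKM). Of 673 X-linked genes 2 were apart and lower, 1 of them Tsga8, a spermatid gene (0.852 and 0.533 against 2.27 and 7.45 FPKM). Tsga8 passed the filter through the high pair alone and had to be lower. The 28 Y-linked genes had a median of 0.70, and the 13 protein-coding genes of the mitochondrial genome a median of 0.26. Among gene types, 548 of 1395 long non-coding RNAs were apart and lower (39.28%), a larger share than of 13316 protein-coding genes (1596, or 11.99%). Genes that passed the filter through the high pair alone, which had to be lower, are in these shares and were not counted by gene type.

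Transcripts of other tissues were checked beside these results. Of 47 fitted hepatocyte genes 1 was apart, Fbp1 (1.63 and 4.11 against 101 and 165 FPKM), a gluconeogenic enzyme. The list followed the labels instead, with a median of 5.18 for KO minus WT. Alb, the serum albumin of liver, had 0.271 FPKM in the library labelled WT replicate 1 and 111 in that labelled KO replicate 2 of the low pair, and 0.169 and 119 FPKM in the libraries labelled WT and KO of the high pair. Summed hepatocyte levels were 58.0 and 498 FPKM in the low pair and 133 and 648 FPKM in the high pair, so in each pair the library labelled KO had more. Fbp1 alone gave 101 FPKM of the 133. Mup3, another gene of the list, had 0 and 1.41 FPKM in the low pair and 0 and 21.6 FPKM in the high pair. The pairs thus did not hold equal levels of every liver transcript. With the genotype label as a further term, 2631 genes were apart and lower and 246 higher. Red blood cell genes had a median of 0.01, and Hbb-bs, a beta-globin with near-identical copies, overlapped (120 and 71.4 against 105 and 54.8 FPKM). Of 7 fitted epididymis and rete genes 3 were apart and lower, among them Spink2, which the acrosome of germ cells also holds. Of the 7, 1 passed the filter through the high pair alone and had to be lower. Lcn5, the defining epididymis marker, was at 0 except for 0.943 FPKM in the library labelled WT replicate 2.

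The promoters of the lower genes were read because many of these genes differed together. Promoters of 11326 fitted genes, the 250 bases before the start in RefSeq on GRCm38.p6, were searched on both strands for 15 words of known factors. The words were chosen with the values known, so their shares are a description, and 10 of the 15 were more frequent in promoters of the lower genes than in those of genes that were neither. The A-MYB-type word AACNGNC was in 37.94% of 1571 promoters of lower genes, in 23.17% of 82 promoters of higher genes, in 27.49% of 9673 others and in 27.64% of all 27025 promoters in the table. The palindromic RFX-type word GTTNCCNNGGNAAC was in 1.27%, 0%, 0.39% and 0.38% of the same groups. The cAMP response word TGACGTCA was in 2.42% of the lower and 2.72% of the other promoters, and the GC box GGGCGG in 44.75% and 60.02%. The median GC content was 56.4% in lower and 60.0% in other promoters, so base composition differs too. A match is a run of letters, not a site of binding.

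The 4 promoters below show the words beside genes given above, and were picked because they hold them. Capitals mark the matches: AACNGNC or its reverse complement in Cntd1 (chr11:101278953-101279202, plus strand), Ldhc (chr7:46861013-46861262, plus strand) and Tdrd9 (chr12:111971309-111971558, plus strand), and GTTNCCNNGGNAAC in Catsperg1 (chr7:29214034-29214283, minus strand). Each is written 5′ to 3′ on the gene's strand and ends at the base before the RefSeq start. Cntd1 and Ldhc hold 2 matches each, and Tdrd9 and Catsperg1 hold 1. The gene start given with the deposited values lies 191 bases upstream of the RefSeq start for Cntd1. Both Cntd1 matches therefore lie inside the gene by that start. For Ldhc the distance is 60 bases, and for Tdrd9 and Catsperg1 it is 0.
Cntd1: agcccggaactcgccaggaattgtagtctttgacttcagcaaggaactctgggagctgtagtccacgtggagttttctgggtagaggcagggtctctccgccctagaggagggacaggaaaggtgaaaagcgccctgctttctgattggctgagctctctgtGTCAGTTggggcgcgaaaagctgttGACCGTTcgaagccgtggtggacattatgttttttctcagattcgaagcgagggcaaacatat
Ldhc: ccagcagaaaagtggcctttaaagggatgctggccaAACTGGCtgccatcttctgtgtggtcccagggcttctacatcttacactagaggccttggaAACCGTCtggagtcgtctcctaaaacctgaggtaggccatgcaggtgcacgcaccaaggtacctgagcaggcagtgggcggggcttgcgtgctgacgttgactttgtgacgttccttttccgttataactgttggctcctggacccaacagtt
Tdrd9: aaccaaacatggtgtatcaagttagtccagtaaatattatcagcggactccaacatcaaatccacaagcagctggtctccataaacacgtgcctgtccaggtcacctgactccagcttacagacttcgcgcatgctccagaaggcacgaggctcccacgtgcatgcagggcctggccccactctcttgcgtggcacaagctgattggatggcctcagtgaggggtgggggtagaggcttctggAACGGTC
Catsperg1: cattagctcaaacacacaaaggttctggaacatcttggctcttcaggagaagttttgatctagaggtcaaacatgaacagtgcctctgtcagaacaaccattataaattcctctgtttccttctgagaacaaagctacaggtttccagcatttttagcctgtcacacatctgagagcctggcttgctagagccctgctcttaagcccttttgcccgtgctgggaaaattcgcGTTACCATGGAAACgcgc

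The P12 libraries, which the grouping did not use, give a test of the labelled genotypes at the earlier age. There Alkbh5 followed the labels, with 10.2 and 17.8 FPKM in WT and 0.0564 and 0.0218 FPKM in KO. The edgeR quasi-likelihood test on these 4 libraries called 9 of 16702 genes lower in KO (0.0539%, adjusted p under 0.05) and 0 higher (0%). At an unadjusted p under 0.05 it had 1382 lower (8.27%) and 889 higher (5.32%). Of the 8 genes other than Alkbh5, which formed the pairs, 6 were also apart and lower in the P18 low pair, beside 14.9% over all genes fitted.

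The P12 calls fell to low levels in both KO libraries. Morc2b, a germ cell member of the MORC family of chromatin ATPases, fell from 1.63 and 3.22 FPKM in WT P12 to 0.120 and 0.110 in KO P12 (log2 -4.34 ± 0.38, SE, n = 2 per group, edgeR adjusted p = 0.0467). At P18 it had 2.89 and 3.19 FPKM in the low pair and 34.5 and 51.6 FPKM in the high pair. Cntd1 fell at P12 by 1.99 log2 units ± 0.19 (edgeR adjusted p = 0.0467). Mroh4, a HEAT-repeat gene, had 8.59 and 10.9 FPKM in the P18 low pair and 161 and 173 FPKM in the high pair, and Gml, which encodes a GPI-anchored protein, had 34.8 and 30.5 against 87.6 and 72.1 FPKM. For all 4 genes both low libraries at P18, which had under 1 FPKM of Alkbh5, were above both KO P12 libraries and between the 2 WT P12 libraries. The WT P12 levels were 6.51 and 9.46 FPKM for Cntd1, 5.75 and 12.8 for Mroh4 and 25.5 and 38.5 for Gml, and the KO P12 levels were 2.05 and 1.92, 0.374 and 0.533, and 7.38 and 8.30 FPKM. Without KO P12 replicate 1 or without KO P12 replicate 2 the calls of Cntd1, Mroh4, Morc2b and Gml were lost (edgeR adjusted p up to 0.134 and up to 0.0561), with 1 KO library assumed to vary like the others.

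Over all genes, the directions at P12 and P18 are set side by side, from libraries that are not shared. Of the 2481 genes lower in the P18 low pair, 1863 (75.09%) had a lower fitted value in KO P12 and 474 a higher one, with a median log2 difference of -0.32. Of the 2481, 1033 passed the filter through the high pair alone, so their direction at P12 rests on levels under 1 FPKM. Of the 151 higher genes, 132 (87.42%) had a higher value in KO P12, with a median of 0.32. Over all genes fitted 47.2% were lower and 51.83% higher in KO P12, with a median of 0.01. The differences at P12 were small beside those at P18, and 7 of the 2481, Alkbh5 among them, were called. Across 16701 genes, without Alkbh5, the log2 differences correlated at r = 0.388 (Pearson) and rho = 0.483 (Spearman), as a description, since genes are not independent replicates.

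**Figure D5:**
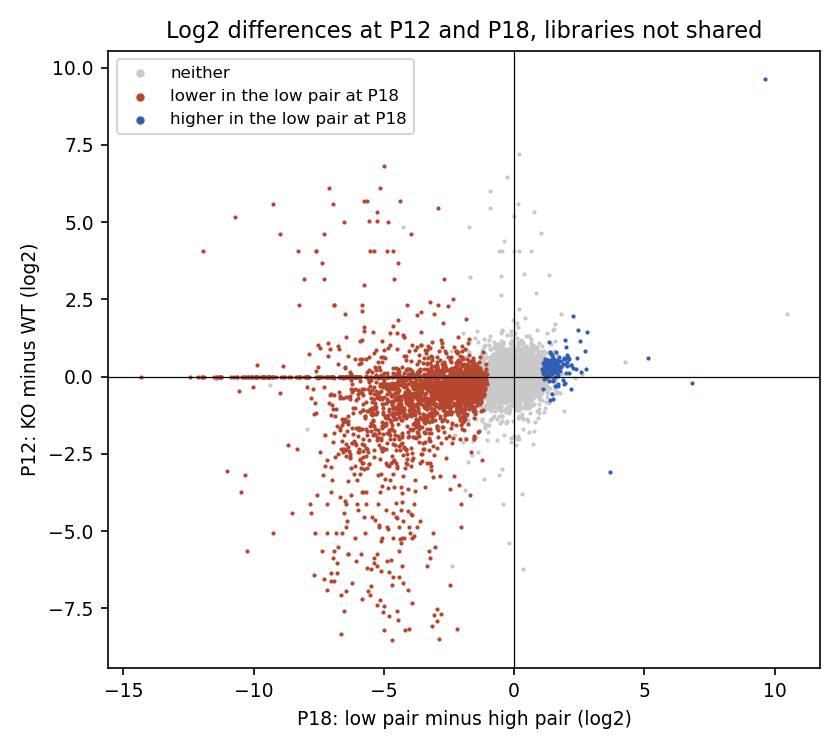
Log2 difference of each fitted gene other than Alkbh5 between the P18 pairs (horizontal, low minus high) and between the labelled genotypes at P12 (vertical, KO minus WT); red and blue genes are apart at P18, lower and higher. Most red genes lie below 0 on the vertical axis (75.09% of the 2481) and most blue genes above it (87.42% of the 151). Over all genes fitted 47.2% lie below and 51.83% above. Points in a row at 0 are genes without counts in the P12 libraries.

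Of the 35 lists, the median had the same sign at P12 as between the P18 pairs for 25, the opposite sign for 8 and was 0.00 at P12 for 2. Pachytene and diplotene genes had a median of -0.81 (28 of 31 lower in KO P12), synaptonemal and cohesin genes -0.52 (20 of 21), recombination genes -0.45 (32 of 33) and axoneme genes -0.64 (45 of 52). Of all genes fitted 47.2% were lower. Of the 52 axoneme genes, 24 passed the filter through the high pair alone and so were under 1 FPKM in every P12 library. Sertoli genes had a median of 0.22 (28 of 32 higher, against 51.83% of all genes fitted) and undifferentiated spermatogonia genes 0.15. Among the lists of opposite sign were spermatid genes (-4.66 at P18 and 0.30 at P12), differentiating spermatogonia and meiotic entry (0.33 and -0.17) and peritubular genes (0.41 and -0.02). Glycolytic isoforms had a median of 0.00 at P12, against -1.43 at P18. Of the members of these lists edgeR called Cntd1. Adjusted over all genes, Sycp3 (77.0 and 107 FPKM in KO P12 against 144 and 158 in WT P12, log2 -0.70 ± 0.14, edgeR adjusted p = 0.114), Ldhc (-2.82 ± 0.43, edgeR adjusted p = 0.0791), Ybx2 (-1.64 ± 0.22, edgeR adjusted p = 0.0703) and Kitl (0.41 ± 0.07, edgeR adjusted p = 0.0811) did not pass.

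Grouped by their labels, the same 4 P18 libraries gave 0 genes in the edgeR test (0%). DESeq2 called 11 lower and 103 higher. As labelled, each group held 1 low and 1 high library, and the common dispersion was 0.405, against 0.0179 among the P12 libraries. The test of whether the labelled genotype difference changed with age called 0 in edgeR, where 160 had an unadjusted p under 0.05.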

How the data were processed

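Poly(A) RNA of whole testis was sequenced as paired reads from a dUTP-marked library on an Illumina NovaSeq, per the labels' protocols. Per the submitters' processing notes, the build was GRCm38 and the tools were StringTie 2.1.6, HISAT2 2.2.1 and cutadapt 1.9. The deposited FPKM values, of 38163 genes, were scaled by length and depth by the authors, and the deposited counts are whole numbers that were not normalized. The tool that made the counts, and its use of strand, are not given in the sources used here, so overlapping genes and near-identical copies have uncertain values.

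Genes with at least 1 FPKM in at least 2 of 8 libraries were fitted, 16702 in all. Counts were scaled by the trimmed mean of M-values (TMM) in edgeR 4.0.16 (R 4.3.3). The P18 pairs were described by the log2 difference of a negative binomial fit (prior count 0.125) and by the gap in log2 CPM (prior count 0.5), with no test. Labelled genotypes were tested at each age alone with edgeR's quasi-likelihood F-test (two-sided, Benjamini-Hochberg over all genes, threshold 0.05). On simulated data this test was tried first for P12 alone, and the gap rule for the P18 pairs. The test of the P18 labels was not tried in this way. DESeq2 1.42.0, limma 3.58.1, other scalings, filters and pseudocounts, a replicate block and leaving out each library were alternatives. With 2 libraries per group that the labels do not call separate animals, p-values measure only the spread between these libraries. Ratios carry exact 95% intervals, and a pair with no counts was set to 3 counts.

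The pairs, the 35 gene lists and the tests were chosen with earlier results of these data known. Of 992 list entries 938 matched a gene name, 23 matched a RefSeq synonym and 31 did not match. A list of autosomal retrogenes was left out because it held sex-linked members. Genes were named by rule: Alkbh5, the 10 lower and 10 higher genes with the largest P18 difference among those apart with at least 5 FPKM in the higher pair and no predicted, clone or Rik name, the most abundant and the 2 most different members of each list, the P12 calls with such a name, and defining cell type markers. Besides the markers the rule gave 115 genes, and not all of them are given in this text. Genes outside the rule were named after their values were seen, among them Tcfl5, Mybl1, Piwil2, Tdrd9, Catsperg1, Spo11, Prdm9, Dmc1, Mettl3, Fto, Ythdc2 and Tnp2. Promoters came from a RefSeq table on GRCm38.p6, matched by symbol, with the start nearest to the gene's own where several are given. Figures were drawn with Python 3.11.15 and matplotlib 3.10.9.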

Additional observations from a re-analysis of the deposited data

How the results depend on the processing

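Beside 2481 lower and 151 higher genes at P18, dropping the filter gave 4277 and 737, any gap above 0 gave 6504 and 6808, and a gap of at least 2 gave 1478 and 6. The higher genes numbered 385 with upper-quartile scaling, 50 on log2(FPKM + 1), 316 on log2(FPKM + 0.1) and 246 with the genotype label as a term, where the lower genes stayed between 1766 and 2631. The number of higher genes therefore depends on the scaling. Upper-quartile scaling moved the median of all genes by 0.205 log2 units, log2(FPKM + 1) by 0.173 and log2(FPKM + 0.1) by 0.234. Leaving out each P18 library gave 2569 to 3231 lower and 288 to 801 higher genes, and WT P18 replicate 2 gave the largest counts. Leaving out any of the 4 moved the higher count by over 1.5 times, since the gap then rests on 3 libraries. Of the alternative values for named genes at P18, 608 moved by less than the spread between libraries and 82 by more, and of those for list medians 181 and 64.

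At P12 the 9 lower and 0 higher calls of edgeR became 536 and 117 with DESeq2. Limma on log2(FPKM + 1) called 0 and the fit of all 8 libraries 0. Without the filter 1 lower gene was called. Leaving out each P12 library gave 5 to 194 lower and 1 to 13 higher genes: 194 and 13 without WT replicate 1, 33 and 4 without WT replicate 2, 5 and 1 without KO replicate 1, and 42 and 6 without KO replicate 2. With the replicate block, which rests on a shared number in the titles, 385 lower and 54 higher genes were called at P12 and 0 at P18. The deviations of same-numbered libraries correlated at -0.0046 at P12 and -0.8875 at P18. At P12 they were thus unrelated. At P18 each number is on 1 low and 1 high library, so this check cannot tell whether the numbers pair the samples. With the P18 numbers crossed, 2 genes were called lower and 87 higher in KO as labelled. That block is the low and high pair formed from the Alkbh5 values, so these calls are a description and not a test. As labelled at P18, edgeR called 0 and DESeq2 11 lower and 103 higher. The cause of these differences was not tested. With 2 libraries in a pair, the spread within a pair rests on 1 difference, and genes with few counts in the low pair have uncertain folds.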
